A study of Mus musculus with 6 samples.

Results

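The DNA replication machinery is described here through 39 genes of origin licensing, the replicative helicase, the polymerases, the sliding clamp and its loader, and the proteins that finish and repackage new DNA. The genes are members of a fixed list of symbols, drawn up with earlier results of these data known, and all 39 were found once each among the 30323 gene IDs of the deposited table. RNA was taken from the hearts, undissected, of mouse embryos of embryonic day 9.5. The control group (3 libraries) has the genotype label C57BL/6 ctrl, and the other group (3 libraries), called MCKO, has the label CDC-42 KO and is described as a knockout of Cdc42 in the myocardium. The design text gives 3 hearts a set. The line that drives the deletion, the deleted exon and the strain background of MCKO were not given in the sources used here. No label ties a library to a single heart or litter, so the p-values rest on the spread among these libraries alone, and that spread may be technical.

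Before S phase, the origin recognition complex, Cdc6 and Cdt1 load the ring of Mcm2 to Mcm7 onto DNA, and geminin blocks Cdt1 so that no origin is licensed again in the same cycle. Cdc45 and the GINS complex then turn the loaded ring into a moving helicase, the primase of polymerase alpha starts each strand, and polymerases epsilon and delta extend the leading and lagging strands, the latter held to DNA by the clamp PCNA. Many of these genes are transcribed at the entry into S phase under E2F factors. In the embryonic heart, as in other growing tissues, their transcripts are abundant in dividing cells. In whole hearts, fewer cycling cells and less RNA per cell cannot be told apart.

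Replication genes were lower in MCKO almost throughout, by modest amounts. Together they took 3486, 3451 and 3369 CPM (counts scaled to the same library total) in control replicates 1, 2 and 3, and 2494, 2508 and 2529 CPM in MCKO replicates 1, 2 and 3. The MCKO mean was 73.1% of the control mean, and the groups did not overlap. All 39 genes passed the filter on low counts. By edgeR's quasi-likelihood test with Benjamini-Hochberg adjustment over 14697 tested genes, 32 were called lower at an adjusted p under 0.05, none was called higher, and 7 were not called. Of all tested genes 58.4% were called, 29.1% lower and 29.3% higher. The median log2 fold change, MCKO over control, was -0.39 for the 39 genes and 0.0006 for all tested genes. In 33 of the 39 genes every MCKO library was below every control library in CPM, as it was for 37.2% of all tested genes. These shares of all tested genes also stand beside the counts and separations given by role below. No member was 2-fold lower. A fall of at least 1.5-fold was called for 8 members (Cdc6, Mcm4, Gins1, Pole2, Rfc3, Rpa1, Fen1 and Chaf1b) and for 9.14% of all tested genes. Of the 39 genes, 30 were called lower as reported here and under each of 18 alternatives.

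**Figure D1:**
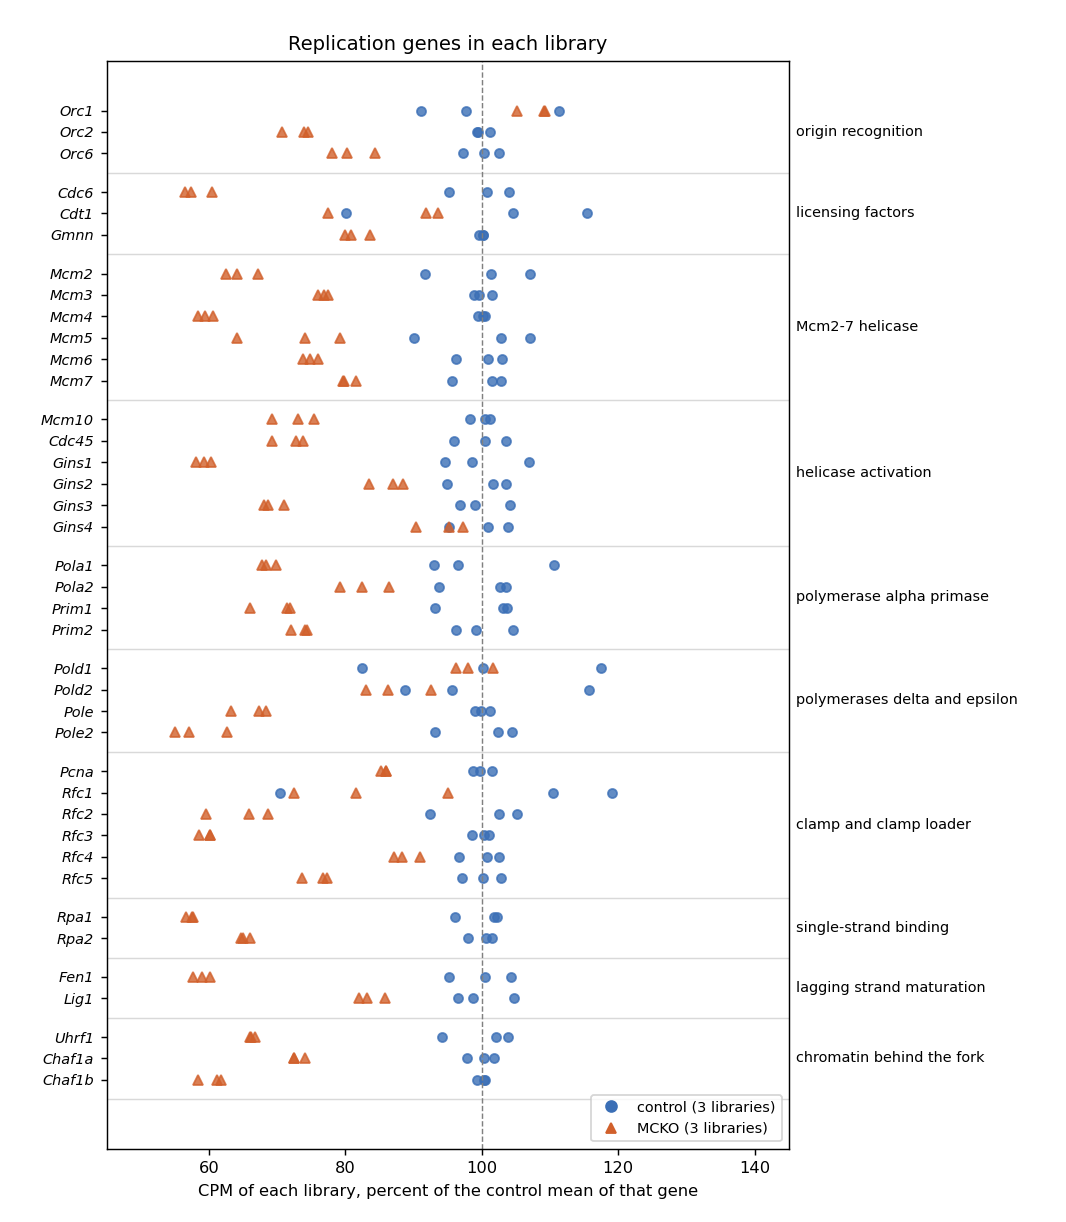
Each symbol is 1 library (circles control, triangles MCKO), placed on the horizontal axis by its CPM as a percent of the control mean of the same gene, with genes grouped by role. The groups do not overlap in 33 of 39 rows, and overlap for Orc1, Cdt1, Gins4, Pold1, Pold2 and Rfc1. Every MCKO library was below every control library for 37.2% of all tested genes.

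The knockout label was checked on Cdc42 (ENSMUSG00000006699). It stood at 398.8, 377.3 and 423.7 CPM in controls and at 247.6, 240.8 and 238.5 CPM in MCKO, a log2 fold change of -0.66 (SE 0.047, edgeR adjusted p = 2.93e-06). A fall of at least 1.5-fold was called for 9.14% of all tested genes, so this fall does not by itself show a deletion. The libraries held 19256840 to 34246477 counts, and the floor of 3 counts corresponds to 0.0876 to 0.156 CPM, far below every member. Heart muscle markers were abundant in every library: the 8 genes of that list summed to 32078 to 35096 CPM in controls and 38434 to 39786 CPM in MCKO, with 4 of 8 called higher and none lower. Markers of other cell types moved with the groups, beside 29.1% of all tested genes called lower and 29.3% called higher. All 10 primitive red cell markers were called higher (summed 3296 to 3701 CPM in controls, 7145 to 7657 CPM in MCKO). Of 8 endothelial markers 6 were called higher and 2 lower (1031 to 1059 and 1106 to 1138 CPM). Of 6 epicardial markers 5 were lower (178 to 187.4 and 70.63 to 72.46 CPM), as were 5 of 6 markers of cushion and neural crest mesenchyme (159.2 to 164.1 and 85.16 to 92.06 CPM). Foregut and liver bud markers had 4 of 7 lower and 3 higher (15.32 to 18.09 and 10.4 to 10.55 CPM). Neural tube markers, with 3 of 5 tested, had 1 lower and 2 higher (21.64 to 26.8 and 9.256 to 10.38 CPM), and leukocyte markers, with 3 of 5 tested, had 2 lower (15.64 to 16.77 and 4.55 to 5.652 CPM). No marker was at 0 in all 6 libraries. The part of these shifts in the replication results was not tested. Leaving the red cell genes out of the table gave the same counts, 32 lower and none higher. That fit removes only the rows of those genes. It cannot show the part of red cells in the member rows, whose counts it leaves unchanged.

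The promoters were searched for E2F, CCAAT and TTTGAA motifs as a description, with no test. RefSeq promoters on GRCm38.p6 were at hand for 31 of the 39 genes, and the 250 bases before each start were read on both strands. A gene was counted if any of its starts held a match. Shares of all promoters count each start on its own and were not limited to tested genes, so they are not like the shares of genes. An E2F motif (TTTCCCGC, TTTGGCGC, TTTCGCGC or TTTGCCGC, which can overlap each other) was found for 9 of 31 genes, or 29%, against 3.75% of the 11039 tested genes with a promoter and 1.86% of all 32851 promoters. The CCAAT motif was found for 21 of 31 genes, or 67.7%, against 40.3% of tested genes and 33.8% of all promoters. The TTTGAA element of cell cycle promoters was found for 5 of 31 genes, or 16.1%, against 12.8% of tested genes and 16% of all promoters. The median GC content of these 250 bases was 59.4% for the members and 59.8% for tested genes. The 9 genes with an E2F match were Orc1, Cdc6, Mcm5, Mcm6, Mcm7, Gins3, Pola1, Rfc3 and Uhrf1. Their median log2 fold change was -0.47, against -0.36 for the other 22. Among 33 other replication genes with a promoter these medians were -0.28 for the 6 with a match and -0.29 for the 27 without. Among G1 and S phase regulators they were -0.44 for the 8 with a match and 0.05 for the 14 without. Among all tested genes with a promoter they were -0.09 for 414 with a match and -0.00 for 10625 without. The motif was found for 36.4% of the G1 and S phase regulators with a promoter. It was found for none of 13 genes of deoxynucleotide supply and none of 28 genes of mitosis, lists with medians of -0.56 and -0.18. Of the members with a match, Cdc6 and Rfc3 were at -0.72 and -0.68, and Orc1 was not called. Rpa1 and Pole2, at -0.74 and -0.72, held none. These genes were named after their values were seen, and whether a match goes with the size of the difference was not tested.

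Promoters of 4 subunits of the Mcm2 to Mcm7 ring are shown, since these genes encode parts of the same complex and were all lower. They come from the RefSeq promoter table on GRCm38.p6, 5′ to 3′ on the gene's strand, and stop before the first annotated transcribed base. Capitals mark E2F and CCAAT matches on either strand, so that ATTGG is a CCAAT on the other strand. Mcm2 is chr6:88898781-88898980 (minus strand), Mcm3 is chr1:20820313-20820512 (minus), Mcm5 is chr8:75109268-75109467 (plus) and Mcm6 is chr1:128359706-128359905 (minus).
Mcm2: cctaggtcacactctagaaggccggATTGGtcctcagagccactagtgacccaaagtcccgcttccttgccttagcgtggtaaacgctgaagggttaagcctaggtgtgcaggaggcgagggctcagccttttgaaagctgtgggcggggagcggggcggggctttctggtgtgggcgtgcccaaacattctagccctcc
Mcm3: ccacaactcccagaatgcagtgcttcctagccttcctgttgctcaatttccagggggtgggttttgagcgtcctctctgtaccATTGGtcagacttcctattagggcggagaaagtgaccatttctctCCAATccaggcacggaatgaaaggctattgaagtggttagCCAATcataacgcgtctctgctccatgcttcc
Mcm5: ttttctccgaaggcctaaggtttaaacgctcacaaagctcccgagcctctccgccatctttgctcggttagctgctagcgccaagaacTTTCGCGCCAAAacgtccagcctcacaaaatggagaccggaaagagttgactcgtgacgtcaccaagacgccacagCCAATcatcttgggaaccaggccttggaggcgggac
Mcm6: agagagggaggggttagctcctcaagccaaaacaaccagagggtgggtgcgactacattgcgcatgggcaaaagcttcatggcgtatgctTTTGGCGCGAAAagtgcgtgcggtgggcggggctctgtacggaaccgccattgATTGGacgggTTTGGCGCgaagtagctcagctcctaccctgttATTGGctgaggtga
Mcm6 held 3 E2F matches, a pair of which overlapped, and 2 CCAAT matches. Mcm5 held 2 overlapping E2F matches and 2 CCAAT matches, of which the one nearest the start lies outside the stretch shown. Mcm3 held 3 CCAAT matches and Mcm2 held 1, and neither held an E2F match in these letters. A match is a description of the sequence and not evidence that a factor was bound there.

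The origin recognition complex marks origins and recruits the loaders. Orc2 stood at 62.04, 62.11 and 63.17 CPM in controls and 46.57, 46.2 and 44.17 CPM in MCKO, with a log2 fold change of -0.39 (SE 0.044, edgeR adjusted p = 6.28e-05). Orc6 went from 51.11, 48.45 and 50.02 CPM to 40, 38.89 and 42.08 CPM, a difference of -0.25 (SE 0.052, edgeR adjusted p = 0.00275). For both subunits every MCKO library lay below every control library. Orc2 shares 29.8% of its exonic bases with Nif3l1 on the opposite strand, which also fell, by 0.52 on the log2 scale. Orc6 shares 6.93% with Vps35 on the opposite strand. Vps35 held 3371 to 6023 unscaled counts in the control libraries and 4913 to 7255 in the MCKO libraries. The library kit keeps strand, but whether the counting used it is not given in the sources used here. Orc1, the ATPase subunit whose protein is removed as S phase proceeds, went the other way in value: 15.31, 14.28 and 17.44 CPM in controls and 17.11, 16.49 and 17.12 CPM in MCKO. The groups overlapped and the difference of 0.17 (SE 0.081) was not called (edgeR adjusted p = 0.107, range 0.014 to 0.305 over the alternatives). Without control replicate 3 Orc1 was called higher, at 0.249 (edgeR adjusted p = 0.0158). The remaining subunit genes Orc3, Orc4 and Orc5 were not called, with log2 fold changes of 0.08, -0.11 and -0.02.

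Among the licensing factors, Cdc6, an ATPase of the loading complex, was called lower. It stood at 52.92, 49.96 and 54.59 CPM in controls and at 31.74, 29.67 and 30.15 CPM in MCKO, a log2 fold change of -0.72 (SE 0.054, edgeR adjusted p = 4.37e-06). The MCKO libraries were close to each other and well below the controls. Gmnn, which encodes geminin, the inhibitor of Cdt1, went from 52.29, 52.24 and 51.98 CPM to 43.6, 42.2 and 41.74 CPM (log2 fold change -0.23, SE 0.045, edgeR adjusted p = 0.0017). Cdt1 itself varied more among controls, at 53.81, 59.36 and 41.19 CPM, than between the groups, with 39.86, 47.25 and 48.11 CPM in MCKO. It was not called, at -0.13 (SE 0.15, edgeR adjusted p = 0.494, range 0.0156 to 0.943 over the alternatives), but was called lower without control replicate 3, at -0.27 (edgeR adjusted p = 0.0296). The ratio of Cdt1 to Gmnn counts was 0.986 ± 0.176 in controls and 1.06 ± 0.129 in MCKO (SD, n = 3 each), and the groups overlapped.

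All 6 subunits of the helicase ring were called lower, by unequal amounts, beside 29.1% of all tested genes. Mcm4 (ENSMUSG00000022673, chromosome 16, 15623897 to 15637400 on GRCm38) stood at 217.1, 218.8 and 219.3 CPM in controls and at 132.3, 129.9 and 127.4 CPM in MCKO, a log2 fold change of -0.69 (SE 0.037, edgeR adjusted p = 5.22e-07). Mcm2 went from 237.7, 251 and 214.8 CPM to 146.4, 157.4 and 150.2 CPM (-0.57, SE 0.061, edgeR adjusted p = 4.41e-05). Mcm6 went from 271.2, 258.7 and 276.7 CPM to 204.4, 198.2 and 201.2 CPM (-0.36, SE 0.040, edgeR adjusted p = 5.33e-05). In each of these the highest MCKO library was below the lowest control. Mcm3, Mcm5 and Mcm7 were called lower at -0.32, -0.40 and -0.25. The count ratio of Mcm4 to Mcm7 was 0.901, 0.921 and 0.979 in controls and 0.708, 0.697 and 0.667 in MCKO, and that of Mcm2 to Mcm7 was 0.959 to 1.06 in controls and 0.783 to 0.844 in MCKO. Both pairs were picked after their values were seen, so the ratios are a description with no test.

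Set per length, as counts per kilobase of the longest coding transcript on the scale of TPM, the levels of 5 of the subunits lay close together in controls and that of Mcm5 did not. Mcm7 and Mcm3 were highest, at 194 ± 6.02 and 192 ± 4 (SD, n = 3), which do not differ beyond their spread. Mcm2 followed at 170 ± 10.7, then Mcm6 at 151 ± 7.68 and Mcm4 at 149 ± 2.62, the latter pair again within their spread. Mcm5 stood at 20.4 ± 1.51 in controls and 14.9 ± 1.56 in MCKO. No near-identical copy of Mcm5 was found in the annotation. The transcript models behind the deposited counts were not given in the sources used here, and their part in the low level of Mcm5 was not tested. In MCKO the length-scaled levels were 157 ± 0.407 for Mcm7, 149 ± 1.27 for Mcm3, 114 ± 2.45 for Mcm6, 111 ± 4.48 for Mcm2 and 89.6 ± 2.77 for Mcm4.

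**Figure D2:**
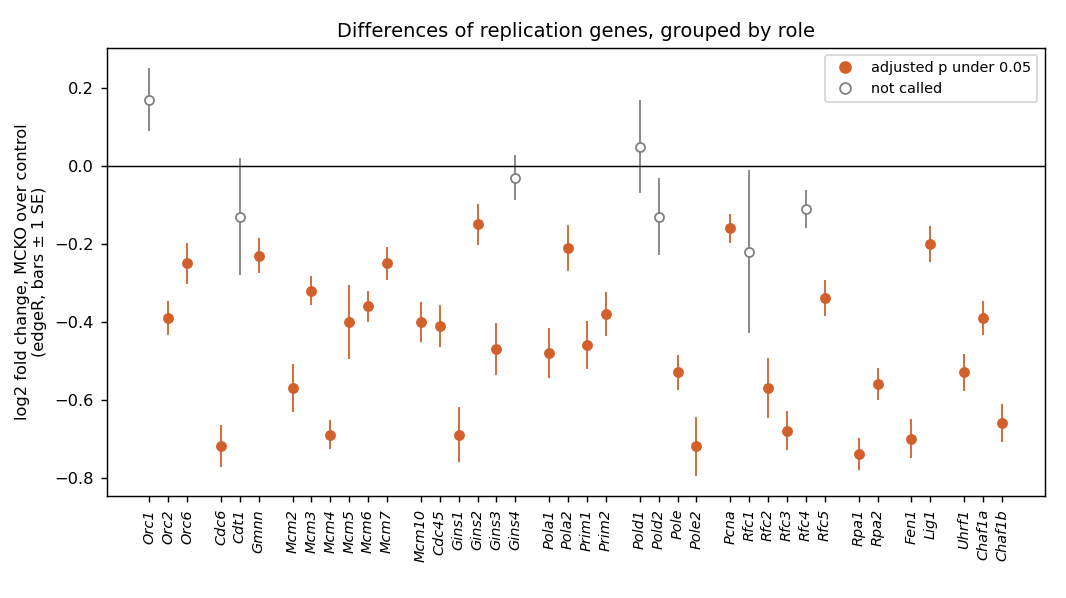
The log2 fold change, MCKO over control, of each of the 39 genes, with bars of 1 SE from edgeR; filled points passed an adjusted p of 0.05 and open points did not. Called values run from -0.74 for Rpa1 to -0.15 for Gins2, and the only values above 0 are Orc1 (0.17) and Pold1 (0.05), neither called.

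Of the factors that activate the helicase, 5 of 6 were called lower, beside 29.1% of all tested genes. Gins1, a GINS subunit, went from 22.42, 20.67 and 19.86 CPM to 12.64, 12.45 and 12.18 CPM, a log2 fold change of -0.69 (SE 0.070, edgeR adjusted p = 3.02e-05). Cdc45, which travels with the ring, went from 46.84, 50.53 and 49.05 CPM to 33.76, 35.51 and 36.01 CPM (-0.41, SE 0.054, edgeR adjusted p = 0.000147). Mcm10, which helps to start the assembled helicase, went from 55, 54.53 and 53.4 CPM to 39.65, 37.57 and 40.95 CPM (-0.40, SE 0.051, edgeR adjusted p = 0.000134). The groups stood apart in all of these. Gins3 was called at -0.47. Gins2 was called at -0.15 (SE 0.052, edgeR adjusted p = 0.0311), but the call was lost in 5 of the 6 fits that leave out a library (control replicates 1 and 2 and each MCKO replicate), at -0.164 to -0.123 with edgeR adjusted p = 0.0636 to 0.126. Gins2 shares 67.3% of its exonic bases with Gse1 on the opposite strand, which was called higher at 0.42 (SE 0.082), so its value is uncertain. Gins4 stood at 33.06, 31.16 and 34.01 CPM in controls and 31.16, 29.6 and 31.86 CPM in MCKO, with overlapping groups and a log2 fold change of -0.03 (SE 0.057, edgeR adjusted p = 0.727). Although Gins1 and Gins4 encode subunits of the same complex, their count ratio was 0.584 to 0.678 in controls and 0.382 to 0.42 in MCKO, a pair picked after its values were seen.

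The 4 genes of polymerase alpha and its primase were all called lower, beside 29.1% of all tested genes. Prim1, the catalytic primase subunit, went from 50.25, 45.39 and 50.48 CPM to 34.98, 32.12 and 34.79 CPM, a log2 fold change of -0.46 (SE 0.061, edgeR adjusted p = 0.000161). Pola1, the catalytic subunit of the polymerase, went from 61.82, 59.51 and 70.78 CPM to 43.8, 43.4 and 44.72 CPM (-0.48, SE 0.065, edgeR adjusted p = 0.00019). Prim2, the large primase subunit, went from 32.06, 30.43 and 29.53 CPM to 22.72, 22.83 and 22.11 CPM (-0.38, SE 0.057, edgeR adjusted p = 0.000347). In none of the 3 did the groups overlap. Pola2, the regulatory subunit, was called at -0.21 (SE 0.059, edgeR adjusted p = 0.0121), and without MCKO replicate 1 the call was lost, at -0.178 (edgeR adjusted p = 0.059, the highest over the alternatives, the lowest being 0.000254).

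Of the 4 members from the strand-extending polymerases, both epsilon genes were called lower and neither delta gene was called. Among all tested genes 29.1% were called lower. Pole, the catalytic subunit of polymerase epsilon, went from 90.68, 89.53 and 88.75 CPM to 61.26, 60.4 and 56.73 CPM (-0.53, SE 0.045, edgeR adjusted p = 9.97e-06). Its partner subunit Pole2 went from 24.16, 21.55 and 23.69 CPM to 13.2, 12.72 and 14.49 CPM (-0.72, SE 0.076, edgeR adjusted p = 3.75e-05). Both were clearly apart from controls. Pold1, the catalytic subunit of polymerase delta, stood at 69.34, 81.32 and 57.1 CPM in controls and 66.63, 67.83 and 70.34 CPM in MCKO (0.05, SE 0.12, edgeR adjusted p = 0.764). Pold2, its second subunit, stood at 51.51, 62.37 and 47.81 CPM in controls and 44.76, 46.48 and 49.87 CPM in MCKO (-0.13, SE 0.099, edgeR adjusted p = 0.29). In both delta genes the groups overlapped, with control replicate 2 high and control replicate 3 low. On the wider list of replication genes, the further delta subunit gene Pold3 was called lower at -0.16 (SE 0.054, edgeR adjusted p = 0.0269). Another delta subunit gene, Pold4, low in both groups, was called higher at 1.15 (SE 0.12, edgeR adjusted p = 4.51e-05). The epsilon subunit genes Pole3 and Pole4 were called lower at -0.29 and -0.54. Whether the delta and epsilon genes differ in response was not tested.

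The wide spread of Cdt1, Pold1 and Pold2 among controls went with the GC content of their transcripts. These 3 genes had the highest GC of the 39, at 58.8, 60.7 and 58.7%, against a median of 49.4% for the members and 50.3% for all tested genes. Their control replicate 2 exceeded control replicate 3 by 0.53, 0.51 and 0.38 on the log2 scale. The same order, replicate 2 highest and replicate 3 lowest, was seen in 9 members with a GC content of 51.9 to 60.7%, while the other 30 had 41.5 to 53.7%. Across the 39 genes the log2 ratio of these 2 libraries and GC content had a Pearson r of 0.71 and a Spearman rho of 0.73, a description across genes of 1 pair of libraries, which are not independent replicates. With a correction for GC content in each library, chosen after this was seen, 35 members were called lower and 1, Orc1, higher, at 0.215 (edgeR adjusted p = 0.014). Of all 14084 genes tested in that fit, 33.9% were called lower and 32% higher. Pold2 was then called lower at -0.27 (SE 0.049, edgeR adjusted p = 0.000222, range up to 0.836 over the alternatives), Cdt1 at -0.266 (SE 0.079, edgeR adjusted p = 0.0156) and Pold1 at -0.157 (SE 0.048, edgeR adjusted p = 0.00962, range up to 0.92), the last with its sign turned. The results for these 3 genes therefore depend on this correction, and the median of the 39 genes moved from -0.39 to -0.36. Rfc1, at 46.5% GC, differed most between control replicates 2 and 3, at -0.76 on the log2 scale. With the correction Rfc1 stayed uncalled, at -0.177 (SE 0.23, edgeR adjusted p = 0.537).

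**Figure D3:**
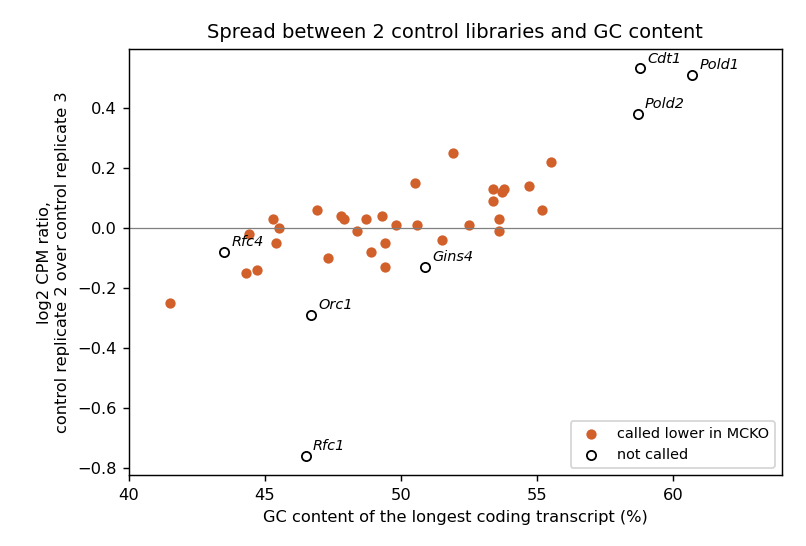
Each point is 1 of the 39 genes, with the GC content of its longest coding transcript on the horizontal axis and the log2 ratio of its CPM in control replicate 2 over control replicate 3 on the vertical axis; filled points were called lower in MCKO. Cdt1, Pold1 and Pold2 sit at the upper right, above 58% GC and above 0.3, and Rfc1 lies lowest at -0.76.

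PCNA, the ring that holds polymerase delta on DNA, cannot be read from its own row alone. Pcna (ENSMUSG00000027342, chromosome 2, 132249162 to 132253314 on GRCm38) held 174.8, 179.9 and 176.8 CPM in controls and 152.4, 152.3 and 151 CPM in MCKO, a log2 fold change of -0.16 (SE 0.037, edgeR adjusted p = 0.00462). Its processed pseudogene Pcna-ps2 (chromosome 19, 9283380 to 9284160) matches 51.4% of the length of the longest Pcna coding transcript at 99.2% identity. Pcna-ps2 held 40.17, 33.03 and 41.59 CPM in controls and 0.0876, 0.1167 and 0.1256 CPM in MCKO, or 3058 counts in the controls together and 9 in the MCKO libraries together. The copy thus took 15.51 to 19.05% of the summed counts in controls and 0.05745 to 0.08313% in MCKO. The row of Pcna-ps2 had a log2 fold change of -8.36 (SE 0.18, edgeR adjusted p = 2.35e-09). Estimated counts can move between near-identical transcripts, so the split is uncertain in both groups. Whether the copy itself, or its own transcription, differs between the groups was not tested. Summed over both rows, the level was 215, 212.9 and 218.4 CPM in controls and 152.5, 152.4 and 151.1 CPM in MCKO. The log2 fold change of the sum was -0.44 (SE 0.036, edgeR adjusted p = 7.13e-06), more than 1.5 times that of the Pcna row. The sum includes any transcripts of the copy itself, so it is not an estimate for Pcna alone. The other near-identical copies found, Gm12870 of Rfc5 and Gm5648 of Uhrf1, held at most 3 counts in any library.

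**Figure D4:**
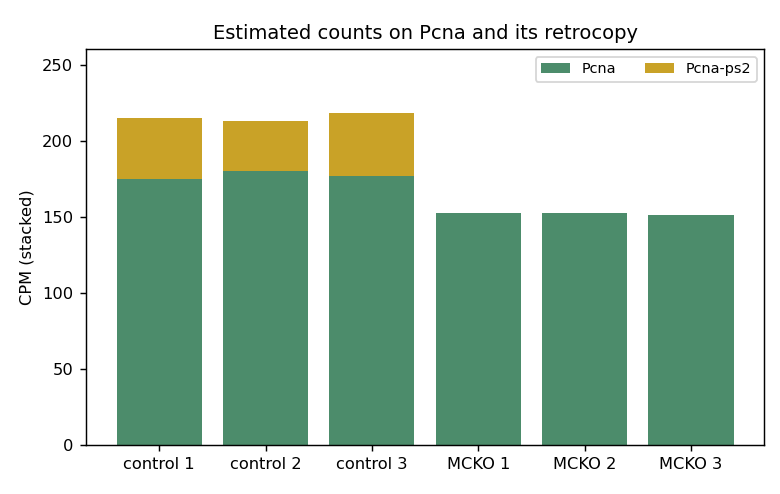
Stacked bars give the CPM of Pcna (lower part) and of its retrocopy Pcna-ps2 (upper part) in each of the 6 libraries. The copy adds 33.03 to 41.59 CPM to the control bars and is too small to see in the MCKO bars, where the sum is 151.1 to 152.5 CPM.

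The clamp loader opens PCNA and sets it on primed DNA. Rfc3 went from 37.62, 38.27 and 38.55 CPM to 22.92, 22.95 and 22.36 CPM, a log2 fold change of -0.68 (SE 0.050, edgeR adjusted p = 3.73e-06). Rfc2 went from 28.87, 28.15 and 25.4 CPM to 16.38, 18.08 and 18.88 CPM (-0.57, SE 0.078, edgeR adjusted p = 0.000217), and Rfc5 from 69.56, 65.69 and 67.8 CPM to 52.36, 49.86 and 51.96 CPM (-0.34, SE 0.046, edgeR adjusted p = 0.000212). The groups stood apart for all of these small subunits. They also stood apart for Rfc4, but by less: it went from 46.7, 44.82 and 47.53 CPM to 42.16, 40.37 and 40.91 CPM and was not called (-0.11, SE 0.048, edgeR adjusted p = 0.0741, range 0.013 to 0.228 over the alternatives). Without control replicate 2 it was called, at -0.133 (edgeR adjusted p = 0.045). Rfc4 shares 12.7% of its exonic bases with Eif4a2 on the opposite strand. That gene held 7370 to 13822 unscaled counts in the control libraries and 12067 to 17827 in the MCKO libraries, so the value of Rfc4 is uncertain. The count ratio of Rfc3 to Rfc4, which rests on it and was picked after its values were seen, was 0.806 to 0.854 in controls and 0.544 to 0.568 in MCKO. Rfc1, the large subunit, stood at 47.66, 30.43 and 51.42 CPM in controls and 31.27, 35.2 and 41.03 CPM in MCKO. Its lowest control lay below every MCKO library, and it was not called (-0.22, SE 0.21, edgeR adjusted p = 0.412, range 0.0196 to 0.805). Without control replicate 2, Rfc1 was called lower at -0.411 (edgeR adjusted p = 0.0196). Rfc5 shares 10.7% of its exonic bases with Wsb2 on the opposite strand. Wsb2 held 1800 to 2682 unscaled counts in the control libraries and 2088 to 3001 in the MCKO libraries.

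Replication protein A coats the single strands that the helicase exposes. Both of its members were called lower, beside 29.1% of all tested genes. Rpa1 (ENSMUSG00000000751, chromosome 11, 75298166 to 75348324 on GRCm38), the large subunit, went from 169.8, 159.5 and 169.1 CPM in controls to 95.89, 95.52 and 94.16 CPM in MCKO, a log2 fold change of -0.74 (SE 0.041, edgeR adjusted p = 6.1e-07). Rpa2 went from 75.82, 73.17 and 75.13 CPM to 48.5, 49.35 and 48.32 CPM (-0.56, SE 0.042, edgeR adjusted p = 4.8e-06). For both subunits the MCKO libraries were close to each other and far below the controls.

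Lagging strand fragments are trimmed by the flap nuclease FEN1 and sealed by DNA ligase I. Fen1 went from 78.79, 81.74 and 74.64 CPM to 45.23, 47.14 and 46.27 CPM, a log2 fold change of -0.70 (SE 0.051, edgeR adjusted p = 3.73e-06). Lig1 went from 150.5, 141.7 and 138.7 CPM to 119.4, 117.8 and 123.3 CPM (-0.20, SE 0.046, edgeR adjusted p = 0.00521). Both were apart from controls, Fen1 by more.

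The 3 genes that restore chromatin behind the fork were lower. Chaf1b, a subunit of the histone chaperone CAF-1, went from 43.8, 43.26 and 43.71 CPM to 26.66, 26.95 and 25.46 CPM (-0.66, SE 0.049, edgeR adjusted p = 4.18e-06). Uhrf1, which brings the maintenance DNA methyltransferase to new DNA, went from 269.8, 265.2 and 244.7 CPM to 171.6, 173.4 and 171.9 CPM (-0.53, SE 0.047, edgeR adjusted p = 1.2e-05). Chaf1a, the large CAF-1 subunit, went from 81.35, 82.57 and 79.33 CPM to 58.78, 58.77 and 60.08 CPM (-0.39, SE 0.043, edgeR adjusted p = 5.25e-05). The groups did not overlap in any of these. Chaf1a shares 52.5% of its exonic bases with Ubxn6 on the opposite strand, which was called higher at 0.35 (SE 0.075), so its size is uncertain.

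A wider list of 40 other replication genes was also mostly lower. Of these, 27 were called lower, 4 higher and 9 not called, beside 29.1% lower and 29.3% higher among all tested genes. The median log2 fold change of the list was -0.29. The smallest p-values were those of Cdc7, the kinase that fires licensed origins, from 63.9 ± 0.448 to 33.8 ± 1.56 CPM (SD, n = 3 each), Asf1b, a histone chaperone, from 40.3 ± 1.44 to 21.1 ± 0.401 CPM, Dna2, a nuclease and helicase, from 78 ± 2.46 to 42.4 ± 2.11 CPM, and Wdhd1, which links the helicase to polymerase alpha, from 68.1 ± 2.89 to 40.5 ± 0.82 CPM. Dbf4, the activating partner of Cdc7, was not called (-0.06, SE 0.049). The 4 called higher, named after their values were seen, were Pold4, the smallest subunit of polymerase delta, at 1.15 (SE 0.12), Mcm8 at 0.34 (SE 0.073), Rnaseh2a at 0.17 (SE 0.054) and Mtbp at 0.16 (SE 0.053). Pold4 was low in both groups, at 2.48 ± 0.104 and 5.26 ± 0.347 CPM. Under 4 alternatives that keep all libraries, 2 of these genes were called higher.

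Other cell cycle lists were counted in the same way, beside 29.1% of all tested genes called lower and 29.3% called higher. Of 15 genes of deoxynucleotide supply, 14 were called lower and none higher, with a median of -0.56 and a summed level of 63.4% of controls. Of 32 genes of mitosis, 19 were called lower and 1 higher, with a median of -0.18 and a summed level of 86.4%. Of 31 regulators of G1 and S phase, 13 were called lower and 8 higher, with a median of -0.14. Top2a, a topoisomerase of S phase and mitosis on the wider replication list, stood at 655 ± 33.6 CPM in controls and 613 ± 12 CPM in MCKO and was not called (-0.03, SE 0.044). The differences between lists were not tested.

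**Figure D5:**
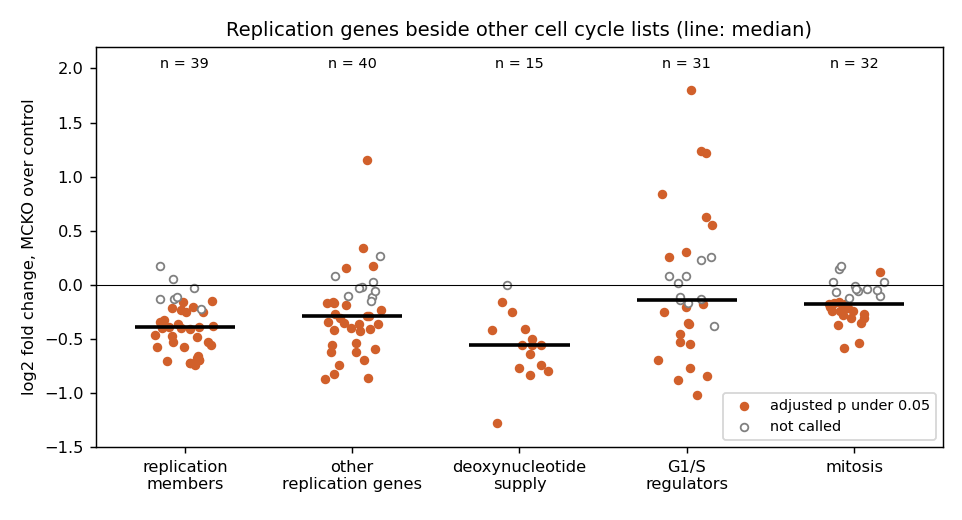
Each point is 1 gene, with its log2 fold change, MCKO over control, on the vertical axis; filled points passed an adjusted p of 0.05, and horizontal lines mark medians. The medians are -0.39 for the replication members, -0.29 for other replication genes, -0.56 for deoxynucleotide supply, -0.14 for G1/S regulators and -0.18 for mitosis.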

How the data were processed

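Polyadenylated RNA of 6 whole-heart samples was sequenced with a stranded kit, per the labels' protocols. The deposited values are estimated counts of reads for each Ensembl gene ID, in whole numbers and unscaled. Per the submitters' processing notes, kallisto and the build mm10 were used. The version, transcript set and strand setting were not given in the sources used here. Knockout columns read CKO where titles read MCKO and were assigned by the remaining name and number. Of 30323 gene IDs, 29857 matched a symbol. Counts were tested with edgeR 4.0.16 in R 4.3.3 (filterByExpr, TMM, robust quasi-likelihood fit, group as the only term, 2-sided). The fit was also run on simulated counts in which few genes differed. Many more genes differ here, so that run does not bear on this setting. CPM values are shares of library totals, without the TMM factors that enter the log2 fold changes. Those factors were 1.017 to 1.026 in controls and 0.9745 to 0.9816 in MCKO. CPM values, their sums and their separations therefore read slightly lower in MCKO than the log2 fold changes do. Floors cover counting error only. Copies were sought with minimap2 2.31, at 95% identity over 80% of either transcript, and annotation came from GENCODE M21. Mcm7, Cdc45, Rfc2, Fen1 and Lig1 also overlap exons of genes on the opposite strand, by at most 15.1% of their exonic bases. Replicates differed by a chi-square per degree of freedom of 3.46 to 14.5 within groups, so none was taken for a copy. Members and lists were chosen with earlier results of these data known. Every member is named, with per-library values for up to 3 of each role by smallest p; of other cell cycle lists, up to 4 called genes by smallest p are named. Per-library values of Pcna and of uncalled members, and any other gene named, were chosen after their values were seen. Alternatives covered size factors, filters, DESeq2 1.42.0, limma 3.58.1 (voom), a replicate block, a stricter threshold, each library left out and copies summed. Those without red cell genes, without mitochondrially encoded genes and with a GC correction (lowess on transcript GC, in the offset) were chosen after seeing the data.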

Additional observations from a re-analysis of the deposited data

How the results depend on the processing

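The counts of called members stayed within 30 to 35 lower under the 18 alternatives. With each library left out, the members called higher were 0 to 1 and those called lower 30 to 33, and the median of the members ran from -0.41 to -0.383. The median was -0.453 with library totals only, which also moved the median of all genes to -0.061 and the share of higher calls from 50.2 to 42.6%, and -0.36 with the GC correction, where 1 member (Orc1) was called higher. Of the other replication genes, 2 were called higher with library totals only, with DESeq2, with the replicate block and at an adjusted p under 0.01, and 2 to 5 with each library left out. The replicate block gave 31 members lower and none higher and lost the call of Gins2. Same-numbered libraries had correlations of deviations of -0.005, 0.022 and -0.13, so the numbers were not taken to pair them. Signs turned only for 2 uncalled members: Gins4 (-0.0574 to 0.00874 with each library left out, above 0 without control replicate 3 or MCKO replicate 2) and Pold1 (-0.0788 to 0.175 with each library left out, below 0 without control replicate 3, -0.015 with library totals only, -0.157 with the GC correction). The cause of these moves was not tested beyond the values given. Cdc42 stayed called, at -0.723 to -0.62.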

Other observations

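The regulators of G1 and S phase were called in both directions, 13 lower (41.9%) and 8 higher of 31, beside 29.1% lower and 29.3% higher among all tested genes. Ccne1, a cyclin that activates CDK2 at the start of S phase, went from 56.5 ± 0.94 to 26.8 ± 1.22 CPM (SD, n = 3 each). The other E cyclin gene, Ccne2, stood at 57 ± 7.38 and 48.8 ± 2.33 CPM. Its groups overlapped and it was not called (edgeR adjusted p = 0.122). Ccnd1, a cyclin of early G1, went from 138 ± 2.81 to 78 ± 2.82 CPM. Ccnd2, a more abundant D cyclin gene, was called higher, from 1050 ± 52.9 to 1202 ± 25.6 CPM, and Ccnd3 was not called. The kinase inhibitor genes Cdkn1a and Cdkn1b rose, Cdkn1a from 15.3 ± 1.21 to 50.6 ± 1.56 CPM and Cdkn1b from 34.1 ± 2.84 to 77.1 ± 4.28 CPM. Cdkn1c, an inhibitor gene of the same family with a higher level, stood at 592 ± 99.4 and 436 ± 58.1 CPM and was not called (edgeR adjusted p = 0.0884), with every MCKO library below every control. Genes of this list named after their values were seen include Skp2, whose product targets the Cdkn1b protein for degradation and whose log2 fold change was -0.84 (SE 0.053), and the phosphatase gene Cdc25a (-0.69, SE 0.055). Rb1, which holds E2F factors inactive, was at 0.84 (SE 0.073), and its relative Rbl1 at -0.55 (SE 0.072). E2f1 and E2f7 were at -0.35 (SE 0.064) and -0.53 (SE 0.061), while E2f2, E2f3, E2f4, E2f5, E2f6 and E2f8 were not called. The growth regulators Myc and Mycn were at 1.22 (SE 0.092) and 0.63 (SE 0.068). All values named here with a log2 fold change passed the edgeR threshold, and no relation of these genes to the replication genes was tested.

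In deoxynucleotide supply, Rrm2, which encodes the cell cycle regulated subunit of ribonucleotide reductase, fell from 259 ± 12 to 102 ± 0.59 CPM. Tyms, which makes thymidylate, went from 66.4 ± 3.68 to 37.2 ± 0.418 CPM, Tk1, a thymidine kinase, from 62.6 ± 2.06 to 34.4 ± 0.16 CPM, and Nme1, a nucleoside diphosphate kinase, from 116 ± 3.05 to 62.6 ± 2.47 CPM. The 1 gene of the list that was not called was Rrm2b, the p53-induced form of the reductase subunit, at 0.00 (SE 0.085).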
